A study of Drosophila melanogaster with 9 samples.

Results

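The heat shock and heat shock cognate genes described here are 10 genes of the 15340 in a table of normalized read counts from the larval ventral nerve cord (VNC) of Drosophila melanogaster. They are the inducible Hsp70Ba and Hsp68, the small heat shock genes Hsp22, Hsp23, Hsp26 and Hsp27, the Hsp90 gene Hsp83, the cognates Hsc70-4 and Hsc70-2, and the heat shock factor gene Hsf, and each was found by its symbol. They were chosen on values already seen in these libraries, so their levels and differences are given as a description, with standard errors and without a test.

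There were 3 conditions with 3 libraries each (replicates A, B and C, from different parent flies), and every larva carried nab-GAL4, a driver active in the neural stem cells called neuroblasts, with UAS-dicer2 and an RNAi against prospero (pros), which turns their progeny into tumors of dedifferentiated neuroblasts. In nab>prosRNAi, chinmo larvae, called PCC, the driver also expressed full-length chinmo, and in nab>prosRNAi, chinmoRNAi larvae, called PC, it also expressed an RNAi against chinmo. The nab>prosRNAi larvae, called P, carried neither and are the control, so that both other conditions held 1 UAS transgene more than P, and the extra transgene cannot be told apart from the Chinmo level in a comparison with P alone. All larvae grew at 18°C for 7 days and at 29°C for the last 3 days, VNCs of many late (wandering) L3 larvae were pooled per replicate, and no library came from larvae kept without the shift to 29°C.

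Heat shock proteins are chaperones that bind unfolded protein. Stress genes such as Hsp70 and Hsp68 are nearly silent until Hsf, a transcription factor activated mainly at the protein level, drives their transcription, whereas the cognates and Hsp83 are made in growing cells at all times. The small heat shock genes of cytological region 67B are known to respond to heat and also to the molting hormone ecdysone at the end of larval life.

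The libraries held 34712815 to 40518948 reads on genes in PCC, 30677075 to 39335800 in PC and 35575053 to 43415151 in P. chinmo itself was at 71836, 89792 and 81295 normalized counts in PCC, at 5427, 6330 and 4518 in PC, and at 8190, 8533 and 8819 in P, in the order that the labels give. The shared RNAi target pros also differed, with 8607, 10751 and 9584 normalized counts in PCC and 35040, 42387 and 31510 in PC, against 17405, 19997 and 15859 in P (log2 difference -0.88 for PCC over P and 1.03 for PC over P, limma adjusted p = 0.00461 and 0.00266). The part of the pros level in the differences between conditions was not tested. Thus a gene that moved the same way in PCC and in PC moved while chinmo differed from P in opposite directions. The summed level of 6 neuroblast markers was 99571 to 117612 in PCC, 58448 to 75868 in PC and 117965 to 132249 in P, and that of 5 neuron markers was 11339 to 18381 in PCC, 34679 to 48722 in PC and 23557 to 30138 in P. Fewer cells of a type and less RNA per cell cannot be told apart in such whole VNCs. Within PC, how far a library lay from the other replicates depended on transcript length (Spearman correlation over all genes with a length 0.27 for PC A, 0.48 for PC B and -0.49 for PC C, against -0.05 to 0.08 for the 6 other libraries). The comparisons of PCC and of PC with P share the P libraries.

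Reads assigned to Hsp70Ba, Hsp68, Hsp26 and Hsp27 were above P in both PCC and PC without overlap, whereas Hsp23 was far above P in PC alone and stv, another target of Hsf, overlapped P in both. Hsc70-4 was highest in PCC, Hsf stayed within 1.26-fold between conditions by the means, and Hsc70-2 was the only one of the 10 genes that lay below P without overlap in both PCC and PC. Scaled by exonic length, Hsc70-4 was the most abundant of these genes in PCC and in P, with 112868 ± 8699 and 71072 ± 8808 normalized counts per kilobase (SD, n = 3 each). Hsp23 came first in PC, with 121908 ± 4920 per kilobase, against 64143 ± 3734 for Hsc70-4 in the same libraries. Below Hsc70-4, the P libraries ranked Hsp83 and Hsp23, whose ranges overlapped, then Hsp27, Hsp26, Hsf, Hsp68, Hsc70-2 and Hsp70Ba, none of which overlapped the next. The stress genes and Hsc70-2 changed places. Hsp68 lay above Hsf in PC and, with overlapping ranges, in PCC, and Hsp70Ba lay above Hsc70-2 in both. Hsp22 was last everywhere because it was listed at 0 in all 9 libraries.

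**Figure D1:**
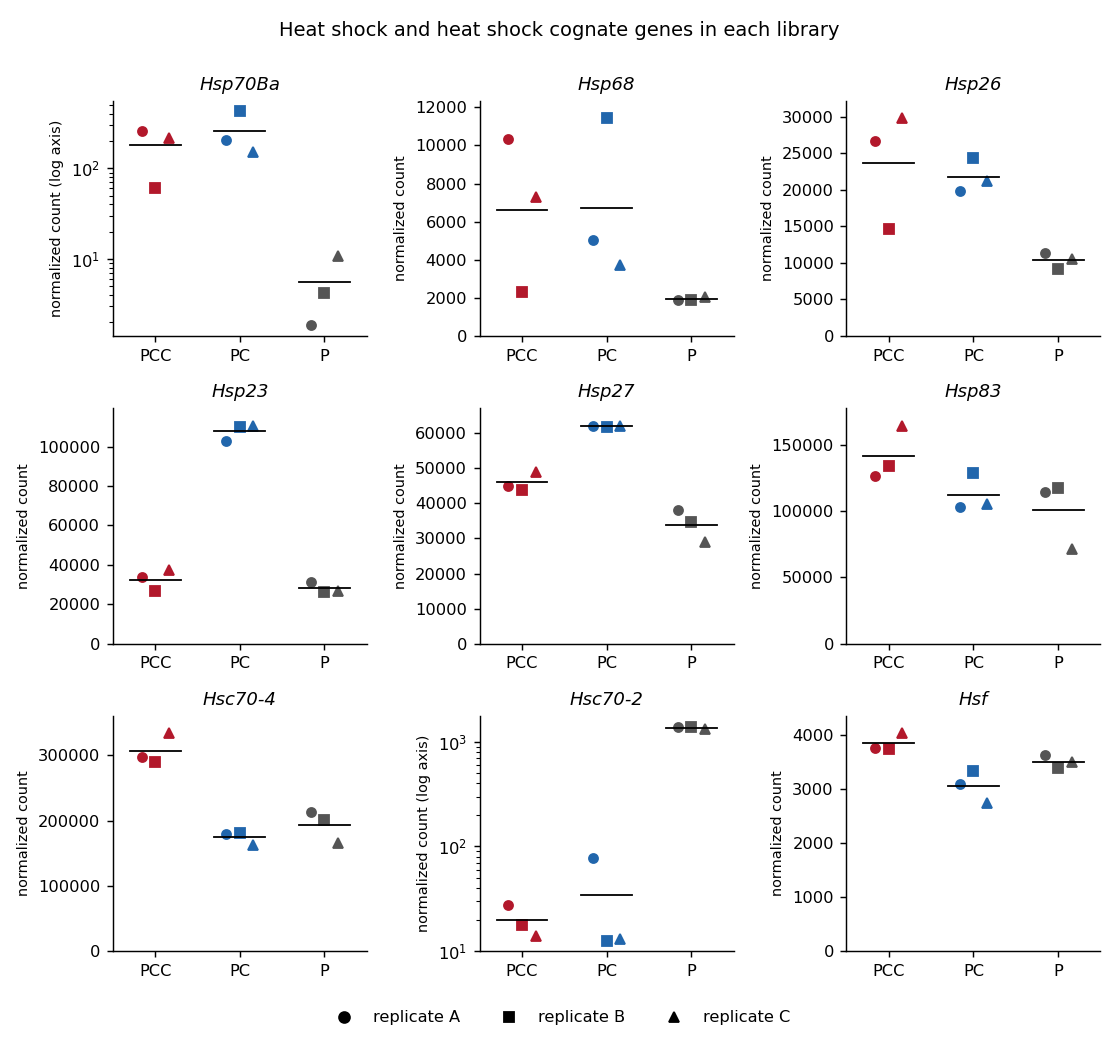
Normalized count of 9 of the 10 genes in each library of PCC, PC and P. Points are libraries, their shape gives the replicate and black lines are arithmetic means; Hsp70Ba and Hsc70-2 are on log axes and the others start at 0. Hsp70Ba separates both PCC and PC from P upward and Hsc70-2 downward, whereas Hsp23 stands high in PC alone.

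Hsp70Ba, 1 copy of the strictly inducible Hsp70 gene on chromosome arm 3R, had 259, 60.9 and 219 normalized counts in PCC and 205, 427 and 153 in PC, against 1.86, 4.19 and 10.8 in P. The P values stand for only 2, 4 and 13 reads, so their ratio to the other conditions carries a large counting error. Vectors for UAS transgenes commonly carry a stretch of the Hsp70 promoter, and PCC and PC held 1 UAS transgene more than P, so reads from a vector and reads of the endogenous gene cannot be told apart here. The values are therefore reads assigned to Hsp70Ba and not a measure of the endogenous gene alone. No PCC or PC library overlapped P. On the log2(value + 1) scale the difference was 4.77 (SE 0.73) for PCC over P and 5.41 (SE 0.59) for PC over P. PCC and PC overlapped each other, with a difference of -0.65 (SE 0.61). Without PCC replicate B, the lowest of the tumors with extra Chinmo, the PCC over P difference was 5.42, and without P replicate C it was 5.31. Without P replicate C the PC over P difference was 5.95.

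The other Hsp70 copies of the table give little to set beside Hsp70Ba. Hsp70Aa, Hsp70Ab, Hsp70Bb and Hsp70Bbb were listed at 0 in all 9 libraries. These copies are nearly identical in sequence, and short reads that align to several copies are left out by the counting, so a 0 does not show that a copy was silent. Hsp70Bc, the only other copy with reads, had 730, 132 and 582 normalized counts in PCC and 265, 700 and 251 in PC, against 160, 162 and 147 in P. PC lay above P (log2 difference 1.20, SE 0.37, limma adjusted p = 0.0438), a call that was lost when any 1 of the P libraries was left out (adjusted p over all alternatives 0.00454 to 0.16). PCC overlapped P, since PCC B was below all 3 P libraries (1.29, SE 0.60, limma adjusted p = 0.176), and without PCC B the difference was 2.05 and passed the threshold.

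Library by library, Hsp70Ba amounted to 35.4% to 46.2% of Hsp70Bc in PCC and to 60.8% to 77.5% in PC, against 1.16% to 7.34% in P. The share thus differed between P and the other conditions even in PCC B, where Hsp70Bc itself stood at the P level. By contrast Hsp70Bc stayed at 5.75% to 8.0% of Hsp68 in PCC and 5.29% to 6.70% in PC, against 7.11% to 8.59% in P. Hsp70Bc and Hsp68 thus moved in near proportion. How reads were split between the copies, or between Hsp70Ba and a transgene vector, was not tested.

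Hsp68, a stress gene of the Hsp70 family that lies apart from the Hsp70 copies on 3R, had 10337, 2289 and 7275 normalized counts in PCC and 5011, 11439 and 3745 in PC, against 1913, 1889 and 2071 in P. All 6 PCC and PC libraries were above all 3 P libraries, with log2 differences of 1.51 (SE 0.51) and 1.61 (SE 0.36), and PCC and PC overlapped (-0.11, SE 0.61). The P libraries lay within 1.10-fold of each other, whereas those of PCC spanned 4.52-fold and those of PC 3.05-fold. Without PCC B the PCC over P difference was 2.15, and without PC B the PC over P difference was 1.15. Both extremes were a replicate B, the lowest of PCC and the highest of PC.

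The same libraries stood out for stv and DnaJ-1. stv, which encodes a BAG-family cochaperone of Hsp70, had 1683, 797 and 1270 normalized counts in PCC, 996, 2197 and 845 in PC, and 808, 765 and 1122 in P. DnaJ-1, an Hsp40 that hands substrates to Hsp70, had 8282, 6057 and 8748 in PCC, 6511, 9429 and 6145 in PC, and 5399, 5260 and 4546 in P. PCC B was the lowest of its condition and PC B the highest for Hsp70Ba, Hsp70Bc, Hsp68, stv, DnaJ-1 and Hsp26. The constitutive Hsc70-4, Hsf and the small heat shock gene Hsp67Ba had the same extremes, but their replicates spread far less than those of Hsp68. For Hsf, PCC B was at 3743 and PCC A at 3756. For Hsc70-4, PC B was at 181209 and PC A at 178848. The share of all genes with these extremes was not tested, so no wider pattern is read from them. Hsp23, Hsp27, Hsp83 and Hsp67Bc did not have them, since at least 1 of the extremes was another library. The summed level of 6 fat body markers (6 of 6 were in the table, none at 0) had the same extremes, though PC C was above PC A, with 123377, 12780 and 75366 in PCC, 180375, 505642 and 252371 in PC, and 54975, 193553 and 212274 in P. Within P this sum spanned 54975 to 212274 while Hsp68 stayed between 1889 and 2071. The summed level of 5 hemocyte markers (5 of 5 in the table, none at 0) was 9976, 5067 and 6446 in PCC, 16430, 23688 and 14015 in PC, and 8768, 7910 and 13505 in P, with each library of PCC and PC in the same order as for Hsp68, and 4 of the 5 rose in PC over P while none was called in PCC over P. The 6 salivary gland markers summed to 110, 33.2 and 116 in PCC, 63.2, 577 and 138 in PC, and 232, 383 and 907 in P. Of the 6 fat body markers, 1 rose in PC over P and none was called in PCC over P. Of the 6 salivary gland markers, 2 fell in PC over P and 4 in PCC over P, and none rose. Over all genes 17.9% rose and 14.1% fell in PC over P, and 9.74% and 8.26% in PCC over P. The part of attached fat body, hemocytes or salivary gland in these values was not tested.

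**Figure D2:**
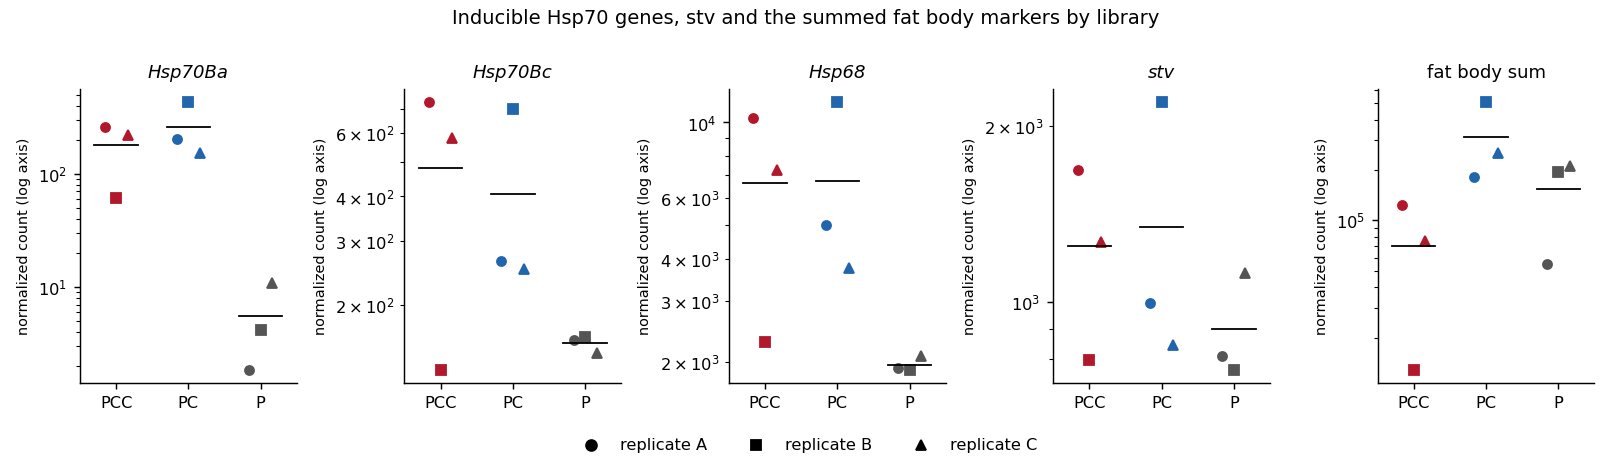
Normalized counts of Hsp70Ba, Hsp70Bc, Hsp68 and stv, and the summed counts of 6 fat body markers, in each library on log axes, with PCC and PC left of P. Replicate B (squares) is lowest in PCC and highest in PC in every panel, and P libraries lie close together for Hsp68 (1889 to 2071) but not for the fat body sum (54975 to 212274).

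The 67B cluster on 3L holds 4 of the 10 genes, and its genes had patterns of their own. Hsp26 had 26657, 14696 and 29840 normalized counts in PCC and 19786, 24307 and 21163 in PC, against 11339, 9230 and 10502 in P. It was about as far above P in PCC (log2 difference 1.14, SE 0.26) as in PC (1.07, SE 0.13). No library of either condition overlapped P, and PCC and PC overlapped each other.

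Hsp23, which lies a few genes away in the same cluster, behaved otherwise. It had 33798, 26504 and 37387 normalized counts in PCC and 102770, 109826 and 110704 in PC, against 31362, 26176 and 26605 in P. PC was 3.84-fold above P by the means (log2 difference 1.95, SE 0.14), and every PC library was above every other library. PCC overlapped P (0.21, SE 0.14) and was below PC by 1.74 on the log2 scale (SE 0.16). Relative to Hsp26, Hsp23 stood at 125% to 180% in PCC, 452% to 523% in PC and 253% to 284% in P, with no overlap between conditions.

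Hsp27, the next gene beside Hsp23, had 45009, 43962 and 48961 normalized counts in PCC and 62190, 61791 and 62064 in PC, against 38193, 34573 and 28861 in P. The 3 conditions did not overlap, with PC highest and P lowest. The log2 differences were 0.45 (SE 0.11) for PCC over P, 0.88 (SE 0.14) for PC over P and -0.43 (SE 0.11) for PCC over PC. Hsp22 lies in the same cluster and was listed at 0 in all libraries, so no read was assigned to it. In the Release 6 annotation every exon of Hsp22 lies within an exon of CG4456, the gene that the table calls Hsp67Bb and that reached 3.72 normalized counts at most. Reads in the shared exons are assigned to neither gene by the union mode of the counting, so the 0 does not show that Hsp22 was silent. Whether the annotation used for the counts had the same overlap was not tested.

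Hsp67Ba, Hsp67Bc and l(2)efl, small heat shock genes outside the 10, were highest in PC. Hsp67Ba had 1521, 1322 and 1467 normalized counts in PCC and 9999, 12435 and 11727 in PC, against 3310, 3253 and 3240 in P. It rose in PC over P (log2 difference 1.79, SE 0.11, limma adjusted p = 0.000152) and fell in PCC over P (-1.19, SE 0.07, limma adjusted p = 0.000293). Hsp67Bc was at 700, 386 and 745 in PCC, 4966, 4883 and 5217 in PC, and 667, 760 and 537 in P, and rose by 2.95 in PC over P (SE 0.14, limma adjusted p = 0.000150). l(2)efl, which lies on 2R outside the cluster, was at 104, 110 and 91.4 in PCC, 678, 670 and 906 in PC, and 255, 260 and 582 in P, and so ordered the conditions as Hsp67Ba did.

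Because these small heat shock genes are known as ecdysone targets, the 20 measured genes of an ecdysone response list are given beside them. Of these, 11 rose and 2 fell in PC over P, 1 rose and 7 fell in PCC over P, and 2 rose and 13 fell in PCC over PC. The background over all genes was 17.9% higher and 14.1% lower for PC over P, 9.74% higher and 8.26% lower for PCC over P, and 19.9% higher and 22.7% lower for PCC over PC. The largest changes in PC over P were those of the nuclear receptor gene Eip78C (log2 difference 2.96), ImpE1 (2.53) and Blimp-1 (2.45). In PCC over P, E23, an ecdysone-induced transporter gene, rose by 3.86, Eip93F fell by 3.02 and Eip78C fell by 1.51, and in PCC over PC the largest differences were those of ImpE2 (-7.24, SE 2.01), Eip78C (-4.47, SE 0.26) and Eip93F (-4.22, SE 0.21). Counts of genes that fell in PCC over P ranged from 3 to 11 when 1 library was left out, the lowest without P B or PCC A and the highest without PCC C, and was 2 with a replicate block. Differences in developmental timing between the larvae were not tested.

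Hsc70-4, the main cytosolic Hsp70 of unstressed cells, had 297408, 288860 and 333381 normalized counts in PCC and 178848, 181209 and 162581 in PC, against 212321, 200511 and 166264 in P. All PCC libraries were above those of P (log2 difference 0.67, SE 0.15) and of PC (0.81, SE 0.18), whereas PC overlapped P (-0.14, SE 0.19). Hsp83, which encodes the Hsp90 chaperone, had 126203, 133706 and 164388 in PCC, 103341, 128304 and 104992 in PC, and 114241, 117710 and 71197 in P. PCC was above P (0.51, SE 0.22) but overlapped PC (0.33, SE 0.18), and PC overlapped P (0.18, SE 0.23). P replicate C was the lowest library for Hsp83, and without it the differences over P were 0.28 for PCC and -0.05 for PC.

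Hsf was nearly level, with 3756, 3743 and 4031 normalized counts in PCC and 3094, 3330 and 2745 in PC, against 3638, 3381 and 3502 in P. The values nevertheless did not overlap between any 2 conditions, with differences of 0.13 (SE 0.06) for PCC over P, -0.20 (SE 0.10) for PC over P and 0.33 (SE 0.10) for PCC over PC. Of the 9 genes with values it had the narrowest range over the 9 libraries, 0.55 on the log2 scale, against a median range of 0.91 over genes with a mean of at least 50.

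Hsc70-2, a cognate gene on 3R, was far below P in both other conditions. It had 27.6, 17.7 and 13.9 normalized counts in PCC and 77.1, 12.6 and 13.1 in PC, against 1397, 1389 and 1317 in P. The means were 69.4-fold lower in PCC than in P and 39.9-fold lower in PC than in P, with log2 differences of -6.10 (SE 0.26) and -5.79 (SE 0.62). PCC and PC overlapped (-0.31, SE 0.74). The P libraries agreed within 1.06-fold.

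PC A stood apart for Hsc70-2, and without it the PC over P difference was -6.63. The summed level of 6 testis markers was 281 to 402 in PCC, 385 to 827 in PC and 327 to 402 in P, and 827 was again PC A. There, the sperm genes dj and Mst98Ca had 64.1 and 111 normalized counts, against 0.94 at most in PC B and PC C, and Mst87F had 92.9 against 11.5 and 16.9, while aly stayed at 5.58 or less in every library. Hsp60B and Hsp60C, copies of the mitochondrial chaperonin gene, were also high only there within PC, with 75.3 and 127 normalized counts in PC A, against 2.29 at most in PC B and PC C. Within PCC, replicate A was likewise the highest for Hsc70-2, dj, Mst98Ca, Mst87F, Hsp60B and Hsp60C. For the testis markers can and betaTub85D the difference from P depended less on any 1 library. In PC over P, can was at -0.14 (-0.22 to -0.04 when 1 library was left out). betaTub85D rose by 1.82, and by 1.45 to 2.06 when 1 library was left out. Mst87F also rose, by 2.43 (1.54 to 3.00 when 1 library was left out, limma adjusted p = 0.0488). That call was lost in 12 of 19 alternatives, among them the fit without PC A. The part of testis tissue in these values of Hsc70-2 was not tested. In P, where Hsc70-2 was at 1317 to 1397, dj and Mst98Ca reached 1.05 and 7.49 at most.

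CG31157, the next annotated gene after Hsc70-2 on the same strand, had a similar contrast. It had 1.90, 2.21 and 3.47 normalized counts in PCC and 10.2, 24.1 and 20.6 in PC, against 208, 211 and 190 in P. It fell by 5.88 in PCC over P (SE 0.32, limma adjusted p = 0.000267) and by 3.48 in PC over P (SE 0.34, limma adjusted p = 0.000591), and the genes do not overlap in the annotation. CG31157 was also the gene whose course over the 9 libraries was closest to that of Hsc70-2, with a root mean square difference of 1.47 on the log2 scale after centring, ahead of the cuticle gene Cpr64Aa (1.78) and CG1673 (1.82). The genes on both sides did not share the contrast. CG11670, the nearest measured gene before Hsc70-2, differed by 0.08 in PCC over P and 0.78 in PC over P, and CG7966, after CG31157, by -0.49 and -0.38.

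**Figure D3:**
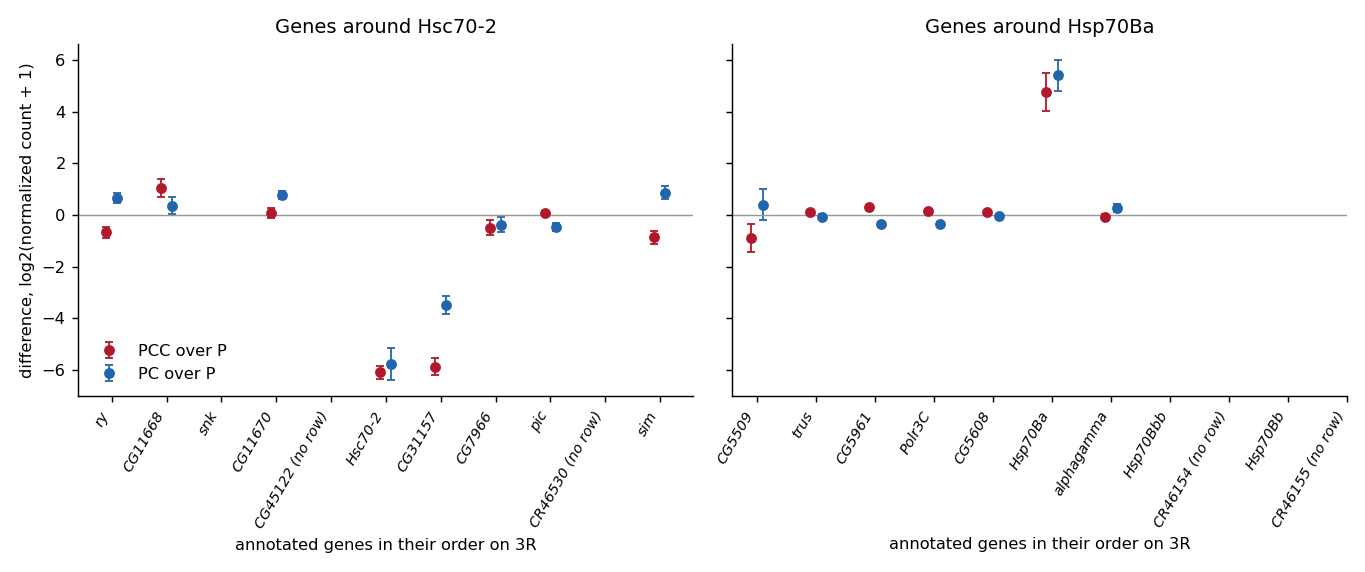
Differences of PCC and PC from P, in log2(normalized count + 1) with standard errors, for the 5 annotated genes on each side of Hsc70-2 and of Hsp70Ba, in their order on 3R. Hsc70-2 and CG31157 are both far below 0, and Hsp70Ba alone is far above 0; genes without a point were not tested or have no row in the table.

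Around Hsp70Ba no such partner was seen among the genes with reads. The 5 genes before it and the alphagamma-element noncoding RNA after it differed from P by -0.89 to 0.32 in PCC and by -0.37 to 0.39 in PC. The other genes after it could not show a partner. Hsp70Bbb and Hsp70Bb were listed at 0, which does not show that they were silent, and the pseudogenes CR46154 and CR46155 were not measured. The gene closest to Hsp70Ba in its course over the libraries was CG6188, which encodes glycine N-methyltransferase, with 349, 25.4 and 271 normalized counts in PCC, 120, 511 and 72.1 in PC, and 25.0, 8.38 and 32.4 in P (root mean square difference 1.31), followed by E23 (1.64) and CG10232 (1.67). CG6188 shared the low PCC B and the high PC B. For Hsp68 the closest gene was Hsp70Bc (0.23), followed by alphaPS4 (0.45) and Hsp26 (0.52), so that inducible genes formed 2 of the 3.

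Counted together, 9 of the 10 genes had values. In PCC over P, 7 were higher without overlap and 1 was lower, where over all genes tested 20.5% were higher and 22.2% lower without overlap. In PC over P, 5 were higher and 2 lower, against 25.8% and 23.4% of all genes. In PCC over PC, 2 were higher and 2 lower, against 27.5% and 28.7% of all genes. Nothing is read from these counts, since the genes were chosen on the same values. The median difference of the 9 genes was 0.51, 0.88 and -0.11 in these comparisons, against -0.02, 0.05 and -0.03 for all genes tested.

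**Figure D4:**
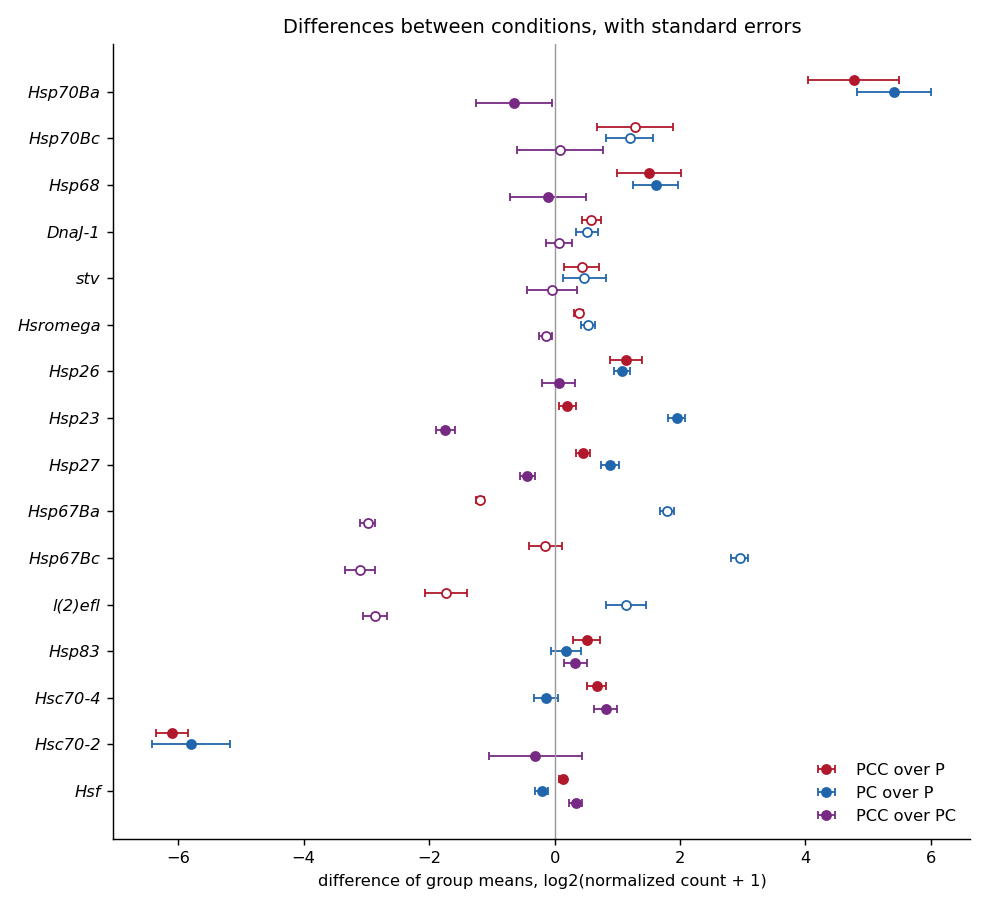
Differences between conditions on the log2(normalized count + 1) scale with standard errors, for the 9 genes with values (filled) and for other heat shock genes (open). Hsp70Ba, Hsp70Bc, Hsp68 and Hsp26 lie right of 0 for both PCC and PC over P, with smaller differences in PCC over PC, whereas Hsp23, Hsp67Ba, Hsp67Bc and l(2)efl lie far left for PCC over PC (-1.74 to -3.10).

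Other genes of the heat shock response, from lists put together with earlier results known, were less uniform. Of 8 tested inducible genes outside the 10, 3 rose and 2 fell in PCC over P, 5 rose and none fell in PC over P, and none rose and 3 fell in PCC over PC. Over all genes 9.74% rose and 8.26% fell in PCC over P, and 17.9% and 14.1% in PC over P. For PCC over PC these shares were 19.9% and 22.7%. The medians of the 8 inducible genes were 0.04, 0.52 and -0.56. The largest changes in PCC over P were the falls of l(2)efl (-1.73, SE 0.33) and Hsp67Ba and the rise of DnaJ-1 (0.59, SE 0.15, limma adjusted p = 0.0367). In PC over P they were the rises of Hsp67Bc, Hsp67Ba and l(2)efl (1.14, SE 0.32, limma adjusted p = 0.0305). The 3 that fell in PCC over PC were Hsp67Bc (-3.10), Hsp67Ba (-2.98) and l(2)efl (-2.87). The noncoding heat shock RNA Hsromega rose in both PCC over P (0.39, SE 0.07) and PC over P (0.53, SE 0.11). The 3 genes that rose in PCC over P were 0 to 2 when 1 library was left out, with none left without P B, and the 5 that rose in PC over P were 3 without P A and 2 without P B. With a replicate block none rose in PCC over P.

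Of 24 constitutive chaperones and cochaperones, 6 rose and none fell in PCC over P, 1 rose and 1 fell in PC over P, and 7 rose and 1 fell in PCC over PC, with medians of 0.27, 0.03 and 0.27. The 7 rises in PCC over PC compare with 19.9% of all genes and the 6 in PCC over P with 9.74%. The rises in PCC over P were led by Droj2, an Hsp40 (0.46, SE 0.10), Hsc70Cb, an Hsp110-type exchange factor (0.40, SE 0.10), and the Hsp70-interacting HIP (0.40, SE 0.09). Trap1, the mitochondrial Hsp90, rose in PCC over PC (0.78, SE 0.11) and fell in PC over P (-0.43, SE 0.12), and the largest rises beside it were those of Hsp60 (0.51, SE 0.11) and HIP-R (0.48, SE 0.10). P58IPK, an Hsp40 of the endoplasmic reticulum, went the other way, with 0.46 in PC over P and -0.32 in PCC over PC. The 6 rises in PCC over P were 3 without PCC A, PCC C or P C, 2 without PCC B and 0 without P B or with a replicate block. The 7 in PCC over PC were 4 without PCC B or PCC C and 13 without PC C.

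The cytosolic chaperonin TRiC, which folds actin and tubulin, and its partner prefoldin are known to act together. Of 13 genes, 8 rose in PCC over P and 8 in PCC over PC, against 9.74% and 19.9% of all genes. None of the 13 fell in either, and their medians were 0.36 and 0.42. Prefoldin was less uniform than TRiC. In PCC over P its genes CG7770 and mgr rose (0.42 and 0.25), whereas CG7048, CG10635 and CG13993 were at 0.00, 0.02 and 0.05. In PCC over PC, CG7048, CG10635 and CG13993 were at -0.41, -0.31 and -0.16, and CG7770 at 0.12. None of them was called there (limma adjusted p from 0.19 to 0.71). When 1 library was left out, CG7048 ran from -0.58 to -0.14, CG10635 from -0.66 to 0.19 and CG13993 from -0.38 to 0.15. CG7770 ran from -0.06 to 0.37 and passed the threshold without PC C. In PC over P, limma called none of the 13 (median -0.06), and DESeq2 called 1 lower. In PCC over P the rises were led by T-cp1 (0.48, SE 0.09), CG8258 (0.44, SE 0.10) and Tcp-1zeta (0.42, SE 0.09), and in PCC over PC by Tcp-1zeta (0.72, SE 0.11), Cctgamma (0.56, SE 0.10) and T-cp1 (0.54, SE 0.10). In PCC over PC, 7 to 9 rose whichever library was left out. The 8 in PCC over P were 5 without PCC C, 3 without PCC A, 2 without PCC B and 0 without P B or with a replicate block.

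**Figure D5:**
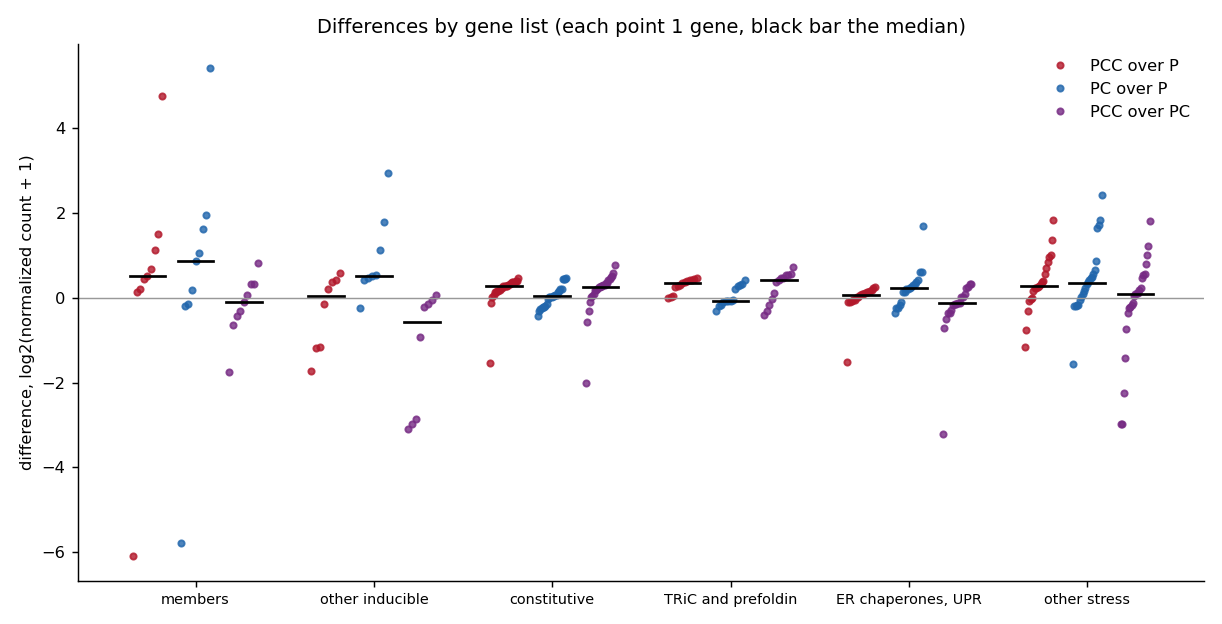
Differences between conditions on the log2(normalized count + 1) scale, each point 1 gene and black bars the medians, for the 9 genes with values, other inducible heat shock genes, constitutive chaperones, TRiC and prefoldin, chaperones of the endoplasmic reticulum and other stress genes. TRiC and prefoldin lie in a narrow band above 0 for PCC over P (median 0.36), and the other inducible genes spread from -1.73 to 0.59.

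Of 18 chaperones of the endoplasmic reticulum and genes of the unfolded protein response, none was called in PCC over P, 5 rose in PC over P (against 17.9% of all genes), and 1 rose and 4 fell in PCC over PC (against 19.9% and 22.7%). The last count is near the background. In PC over P these were led by wbl, a protein of the disulfide isomerase family (1.69, SE 0.41), Hsc70-3, the BiP chaperone (0.62, SE 0.16), and Pdi, a disulfide isomerase (0.60, SE 0.11). In PCC over PC wbl fell by 3.20, Pdi by 0.70 and Herp by 0.51. The 5 rises in PC over P were 2 or 3 when any library but PC C was left out, and 9 without PC C.

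Genes of other stress responses were called in both directions. In PCC over P, 10 of 21 tested rose and none fell, led by the glutathione transferases GstD2 (1.84, SE 0.42) and GstD1 (1.36, SE 0.12) and by the peroxiredoxin Jafrac1 (1.02, SE 0.12). Over all genes 9.74% rose. In PC over P, 5 of 22 rose and 1 fell (17.9% and 14.1% of all genes), with the largest changes in the metalloprotease Mmp1 (2.42, SE 0.29), the secreted stress peptide TotA (1.83, SE 0.47) and GstD2 (1.73, SE 0.39). In PCC over PC, 5 of 23 rose and 5 fell, near the 19.9% and 22.7% of all genes, with TotA at -2.99 and Mmp1 at -2.24, while the metallothionein gene MtnB was at 0 in all PCC libraries and at 2.79, 8.02 and 13.1 normalized counts in PC. Hence GstD1 and GstD2 were the genes of this list that rose over P in both conditions. The 10 rises in PCC over P were 4 to 9 when 1 library was left out, the lowest without P B, and only GstD1 with a replicate block, and the 5 in PC over P were 1 to 9, the lowest without P A and the highest without PC C.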

How the data were processed

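VNC RNA of 9 libraries (3 conditions, 3 replicates each, grouped by the genotype in the labels) was analysed. The authors made poly-A stranded libraries, aligned single reads with TopHat2 2.0.9 and Bowtie2 2.1.0 to dm3, counted reads on genes with HTSeq 0.5.3p9 in union mode and normalized with DESeq. The deposited values are a signal, read counts divided by a size factor, and 100% were whole multiples of 1 read (tolerance 0.001), so reads were recovered.

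For each comparison its 6 libraries were fitted by limma 3.58.1 (R 4.3.3, eBayes with a mean-variance trend) after a pseudocount of 1 and log2, leaving out genes with a summed value under 15. Genes were called at a Benjamini-Hochberg adjusted p of 0.05 over all genes tested. The fit was tested on simulated counts with a fixed dispersion and no replicate or transcript length effect. That check does not cover the length trend or the wide replicate spreads of these libraries. Alternatives were edgeR 4.0.16, DESeq2 1.42.0, other pseudocounts, filters and scalings, a replicate block, a fit of all 9 libraries, removal of a transcript length trend and each library left out.

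The members and all lists were chosen with earlier results of these data known. Named are all 10 members, chinmo, every Hsp70 copy, the 3 called genes of each list with the largest difference, the 5 annotated genes on each side of Hsc70-2 and Hsp70Ba, and for the 3 members with the widest range the 3 genes of most similar course (mean at least 50). Other listed genes, neighbours in 67B and marker genes were named after their values were seen. Gene names, order, strand and exonic lengths came from Release 6 annotation, not dm3, so no coordinates are given. The limma p-values set a difference of group means against the spread between 3 replicates per condition, moderated by a trend over all genes. TopHat and HTSeq treatment of near-identical copies limits all Hsp70 values. No sequences are shown.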

Additional observations from a re-analysis of the deposited data

How the results depend on the processing

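Of 513 member differences recomputed under the alternatives, 498 stayed within 1 replicate SD of the reported value and none past the threshold changed sign, whereas 5 smaller differences (Hsp83 in PC over P, and Hsp70Ba, Hsc70-2, Hsp68 and Hsp26 in PCC over PC) did so in 12 of them. The 15 others came from a pseudocount of 10, which lowered Hsp70Ba to 3.43 in PCC over P and 4.03 in PC over P, and from scalings, edgeR or the removed length trend for Hsc70-2, Hsp27, Hsc70-4 and Hsf. Leaving out 1 of 3 replicates cannot move a difference by 1 pooled replicate SD. Filters, the eBayes setting, the replicate block and the fit of all 9 libraries leave the difference itself unchanged. For these alternatives the count of 498 was fixed in advance and says nothing about stability. Genes called in PCC over P numbered 1990, against 1214 without a trend in eBayes, 3173 with DESeq2 and 170 with a replicate block, which left 3452 of 3665 in PC over P and 4170 of 4931 in PCC over PC. Correlations of same-letter deviations ran from -0.35 to 0.20, and those of different letters from -0.21 to 0.41. With 3 replicates these correlations depend on each other and do not settle whether the letters pair the samples. The block is therefore given as an alternative only. Leaving out 1 library gave 649 to 1759 calls in PCC over P, 1982 to 4767 in PC over P and 3898 to 5668 in PCC over PC. Scaling to the same total moved the share of higher calls in PCC over P to 33.5%, against 54.1%, and in PCC over PC to 35.2%, against 46.7%, where the median of all genes moved to -0.15, against -0.03. Quantile normalization moved that median to 0.11, the share of higher calls there to 57.4% and the share in PC over P to 44.2%, against 55.9%, and edgeR raised the share in PCC over P to 64.2%. The causes were not tested. Hsp70Ba in P rests on 2 to 13 reads, and 3 replicates per condition limit every standard error.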
